A study of Mus musculus with 4 samples.

Results

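NF-kappaB is a family of dimeric transcription factors, and its genes were examined here in lung T helper 2 (Th2) cells. The set was chosen by name and comprised the 5 subunit genes (Nfkb1, Nfkb2, Rel, Rela and Relb) and 5 inhibitor genes of the IkB family (Nfkbia, Nfkbib, Nfkbie, Nfkbiz and Nfkbid). All 10 were among the 11883 genes of the authors' deposited table. The cells came from lungs of C57BL/6 mice given the protease allergen papain in a chronic schedule and were sorted for viability, CD4 and T1/ST2, the interleukin-33 receptor. The 4 samples form 2 genotypes of 2 samples each. The group called control below is Gata3(fl/fl), in which Gata3 can be cut by Cre recombinase, and the group called Klrg1Cre is Klrg1Cre Gata3(fl/fl), which adds a Cre named for Klrg1. Both groups thus carry the floxed Gata3 alleles and both received papain, and no group carried Cre without the floxed alleles. The deposited table heads its group means WT and ILC2 deficient (group 2 innate lymphoid cells); WT was taken as control and ILC2 deficient as Klrg1Cre, a link that the labels do not state. Effects of Gata3 loss in the T cells, of missing ILC2 and of the Cre allele cannot be told apart in this design. The labels give no age and do not tell whether each sample is a separate mouse, so p-values reflect sample-to-sample spread that may be technical.

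The subunits pair through a shared Rel homology domain. Nfkb1 encodes p105, the precursor of p50, and Nfkb2 encodes p100, the precursor of p52; neither p50 nor p52 has a transactivation domain of its own, whereas the products of Rela, Rel and Relb do. IkB proteins hold dimers in the cytoplasm until the IkB kinase (IKK) marks them for degradation, and p105 and p100 can act as inhibitors through their own ankyrin repeats. In T cells the antigen receptor, the costimulatory receptors of the TNF receptor family and the interleukin-33 receptor all feed this pathway, and p50 has been linked to Gata3 expression in Th2 differentiation.

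Several of these genes are themselves NF-kappaB targets, so their promoters are shown first. RefSeq promoter windows (build GRCm38.p6, not the build of the deposited table) were found for 7 of the 10 genes, in 11 windows. The 250 bases before each start were searched on both strands for a kappaB-like motif, a run of G and a run of C around a middle that holds paired T and is otherwise free. It was present in Nfkbia, Rel, Nfkb2 and Nfkbid, which is 4 of 7 genes (57.1%), against 4.71% of 27025 genes with a window and 5.71% of the 9432 such genes in the deposited table. By window the counts were 5 of 11 (45.5%) for these genes and 4.11% of all 32851. A match describes letters, not a bound site, and no match in Nfkbib, Nfkbie or Rela says only that these letters are not in these windows. Nfkb1, Relb and Nfkbiz had no entry. Windows with a match from an inhibitor gene (Nfkbia) and from a subunit gene of each pathway arm (Rel and Nfkb2) are printed below. Windows without a match, such as that of Rela, are not printed. Sequences run 5' to 3' on the gene's strand, with motif matches in capitals.
Nfkbia, chr12:55492648-55492897, minus strand: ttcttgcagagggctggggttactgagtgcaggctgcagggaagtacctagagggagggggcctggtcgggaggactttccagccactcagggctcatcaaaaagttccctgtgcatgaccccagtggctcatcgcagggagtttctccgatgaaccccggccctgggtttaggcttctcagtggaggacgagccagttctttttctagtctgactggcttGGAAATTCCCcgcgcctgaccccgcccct
Rel, chr11:23770970-23771219, minus strand: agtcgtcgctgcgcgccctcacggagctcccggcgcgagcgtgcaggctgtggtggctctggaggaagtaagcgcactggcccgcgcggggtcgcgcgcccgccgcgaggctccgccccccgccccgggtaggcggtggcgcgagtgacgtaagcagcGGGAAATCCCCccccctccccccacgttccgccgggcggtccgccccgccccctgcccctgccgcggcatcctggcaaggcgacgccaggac
Nfkb2, chr19:46304487-46304736, plus strand: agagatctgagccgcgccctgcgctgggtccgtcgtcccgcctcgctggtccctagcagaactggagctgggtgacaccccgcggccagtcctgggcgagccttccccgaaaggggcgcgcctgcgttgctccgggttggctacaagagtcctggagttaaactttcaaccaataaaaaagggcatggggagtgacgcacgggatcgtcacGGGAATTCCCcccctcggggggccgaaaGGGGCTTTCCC
The Nfkbia match lay from base -29 to base -20 relative to the start and read GGGAATTTCC on the opposite strand. Rel held overlapping matches from -92 to -82, also on the opposite strand. The Nfkb2 window held the palindrome GGGAATTCCC from -39 to -30 and overlapping matches from -11 to -1, and another Nfkb2 start had a match from -225 to -216. The Nfkbid match, GGGACTTCCC, lay from -226 to -217 of another start than that gene's most upstream.

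The steps between deposited means gave the depth of each library: 26019065 and 14564426 reads in the Klrg1Cre pair, and 33379572 and 31961572 in the control pair. Whole reads per library could be worked out for 5351 genes, among them Nfkb1, Rel and Nfkbia; the other 7 members are known only as group means. Cd3e, a chain of the T cell receptor complex, held between 72.1 and 78.5 reads per 1000000 sequenced (CPM) in every library. That gene shows that T cells were present, not that the sort was pure, and markers of other cell types are given below. The precursor of ribosomal RNA, Rn45s, took 67.1% of reads in Klrg1Cre and 51.4% in control, while all other listed genes took 18.2% and 17.8%. Reads outside the listed genes made up 14.7% in Klrg1Cre and 30.8% in control. Rn45s is known only as group means, and its unadjusted p in the authors' test was 0.709. In bulk RNA such as this, fewer cells of a type and less RNA per cell cannot be told apart.

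Nfkb1 stood apart from the other 9 genes: its level was 1.83-fold higher in Klrg1Cre, while the others lay between 1.28-fold lower and 1.30-fold higher. Of the 10 members, 0 passed an adjusted p of 0.05 in the authors' deposited table, against 0.0589% of all genes (0.0252% with higher and 0.0337% with lower means), and Nfkb1 came closest (adjusted p = 0.0635). At an unadjusted p below 0.05 the authors' test picked 1 of 10 members, Nfkb1, against 7.09% of all genes (3.72% with higher means and 3.37% with lower). Limma, a linear model that shares variance across genes, was fitted to the recovered genes averaging 1 CPM or more and called 1 of the 3 recovered members, again Nfkb1, against 0.165% of the 4242 genes it tested. Of the 10 members, 5 had higher and 5 lower deposited means in Klrg1Cre. Their median log2 ratio was 0.05, and -0.01 without Nfkb1, beside 0.01 over all genes.

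**Figure D1:**
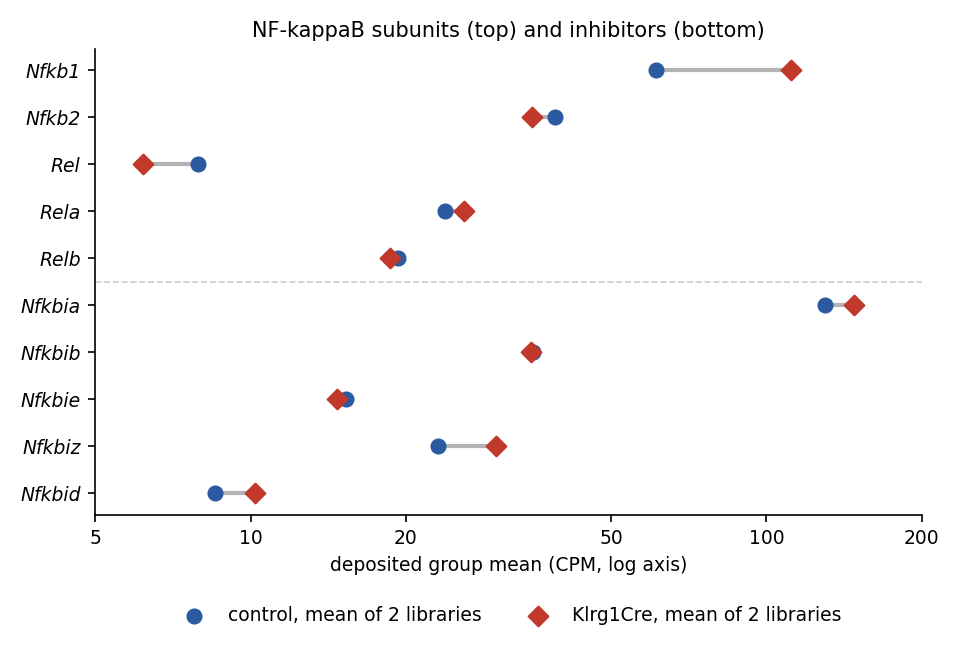
Deposited group means of the 10 genes in CPM on a log axis, with 1 circle for control and 1 diamond for Klrg1Cre, each the mean of 2 libraries. The pair for Nfkb1 is the widest apart (61.1 and 111.8 CPM), and those of Nfkbib nearly coincide (35.2 and 34.9 CPM).

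Among the subunits, Nfkb1, which supplies p105 and p50, held 113.3 and 110.3 CPM in the larger and the smaller Klrg1Cre library and 59.5 and 62.8 CPM in the larger and the smaller control library. Both Klrg1Cre libraries were therefore above both control libraries, as in 19.3% of recovered genes. The gap was wide, and the libraries within each genotype lay close together. Counting error was small beside this gap: the 4 values rest on 2947, 1607, 1985 and 2007 reads, and the 95% Poisson intervals reached down to 105.01 CPM for the smaller Klrg1Cre library and up to 65.6 CPM for the smaller control library. Such intervals cover counting error only. On the log2(CPM + 1) scale limma gave a difference of 0.86 ± 0.13 (SE), with a 95% interval of 1.49-fold to 2.21-fold higher. The unadjusted p of Nfkb1 in the authors' deposited table was 4.81e-05, rank 9 of all genes.

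Whether Nfkb1 passed the threshold depended on the genes tested and on the libraries used, while the size of its difference changed little. Adjusting the authors' p over the 9806 genes averaging 1 CPM or more gave 0.0524, and over the 6300 genes averaging 5 CPM or more gave 0.0379. The limma fit to the recovered genes gave an adjusted p of 0.0447. Without the larger or the smaller Klrg1Cre library limma gave 0.00458 and 0.00204, and without the larger or the smaller control library 0.331 and 0.349, with differences between 0.82 and 0.90 on the log2(CPM + 1) scale in all 4 fits. In each of those fits the lone library of a group was assumed to vary like the other group.

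Rel, which encodes c-Rel, the subunit most tied to antigen receptor responses and to regulatory T cells, pointed the other way without passing a test. It held 5.38 and 7.003 CPM in the larger and the smaller Klrg1Cre library and 8.39 and 7.45 CPM in the control libraries. The groups did not overlap, but the smaller libraries of the 2 genotypes differed by less than their counting intervals (5.71 to 8.50 CPM on 102 reads, against 6.53 to 8.46 CPM on 238 reads). Limma gave a difference of -0.32 ± 0.21 (SE) with an adjusted p of 0.769, and the interval ran from 1.72-fold lower to 1.11-fold higher. Of the 5351 recovered genes, 18.3% had the Klrg1Cre pair wholly below the control pair, 19.3% wholly above and 37.6% separated either way, so the separation of Rel is a common pattern.

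The other subunits had close deposited means. Rela, which encodes p65, the main transactivating partner of p50, was listed at 25.9 CPM in Klrg1Cre and 23.8 CPM in control (adjusted p = 0.928 in the authors' deposited table). Nfkb2, the p100 and p52 gene of the noncanonical arm, was listed at 35.2 against 39.0 CPM (deposited adjusted p = 0.885), and Relb, the partner of p52, at 18.7 against 19.3 CPM (deposited adjusted p = 0.969). Neither gene of the noncanonical dimer passed the authors' test, and their deposited means were 1.11-fold and 1.03-fold lower. A standard error was derived from the authors' p for Rela and Nfkb2 as described under processing: the interval was 1.26-fold lower to 1.49-fold higher for Rela and 1.44-fold lower to 1.18-fold higher for Nfkb2. An interval this wide does not show that the levels were alike. Exons of Nfkb2 overlap Psd on the other strand in the GENCODE M21 annotation, and whether counting used strand is not given in the sources used here; Psd was listed at 0.799 and 1.45 CPM.

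**Figure D2:**
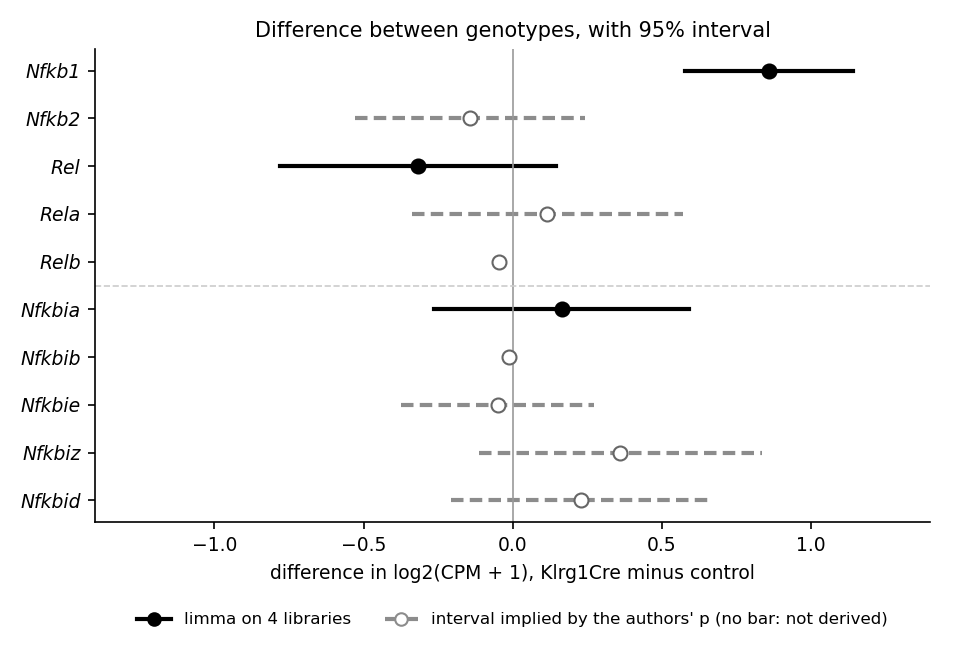
Difference in log2(CPM + 1) between Klrg1Cre and control for each gene, with a 95% interval. Filled points are limma on 4 libraries, open points are deposited means with the interval implied by the authors' p, and Relb and Nfkbib have no interval; of the intervals drawn, that of Nfkb1 alone lies wholly on one side of 0 (0.58 to 1.14).

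Among the cytoplasmic inhibitors, Nfkbia, which encodes IkB-alpha, the fast feedback inhibitor whose promoter match is shown above, did not separate the genotypes. It held 118.0 and 177.5 CPM in the larger and the smaller Klrg1Cre library and 117.1 and 142.1 CPM in the larger and the smaller control library. The larger libraries of both genotypes thus almost coincided, and the smaller library was the higher in each. Limma gave a difference of 0.16 ± 0.19 (SE) with an adjusted p of 0.894. Leaving out the smaller Klrg1Cre library turned the log2 ratio from 0.19 to -0.14, and leaving out the larger Klrg1Cre library raised it to 0.45. Without the larger control library it was 0.06, and without the smaller control library 0.34. Junb, an immediate early gene, was likewise higher in the smaller library of each genotype, at 294.4 and 451.9 CPM in the larger and smaller Klrg1Cre library and 276.1 and 322.4 CPM in control. Among other early genes with recovered reads, Fos shared this order, and Jun, Egr1, Ier2 and Atf3 did not. The part of this ordering in the Nfkbia values was not tested.

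Nfkbib and Nfkbie, which encode the slower inhibitors IkB-beta and IkB-epsilon, had deposited means of 34.9 against 35.2 CPM and 14.7 against 15.3 CPM. By the authors' deposited table the adjusted p was 0.988 for Nfkbib and 0.956 for Nfkbie. The derived interval for Nfkbie was 1.30-fold lower to 1.21-fold higher. Exons of Nfkbib overlap Sirt2 on the other strand in GENCODE M21, and Sirt2 was listed at 45.3 and 45.6 CPM in Klrg1Cre and control, and without strand the reads of overlapping exons cannot be told apart.

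The nuclear inhibitors had the largest deposited ratios among the IkB genes, both upward, without passing a test. Nfkbiz, which encodes IkB-zeta, a nuclear protein that binds p50 and can activate some targets, was listed at 29.9 CPM in Klrg1Cre and 23.0 CPM in control, 1.30-fold higher (deposited adjusted p = 0.764). Its derived interval was 1.08-fold lower to 1.78-fold higher. Nfkbid, which encodes IkB-NS, another p50-binding nuclear protein, was listed at 10.2 and 8.53 CPM, 1.19-fold higher (deposited adjusted p = 0.825), with an interval of 1.15-fold lower to 1.59-fold higher. Bcl3, a further nuclear IkB-like gene outside the set, had 12.1 and 7.48 CPM in the larger and the smaller Klrg1Cre library and 9.26 and 13.7 CPM in control, so its groups overlapped (deposited adjusted p = 0.873).

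Ratios of reads within a library do not depend on how libraries are scaled, and they showed that Nfkb1 was higher relative to both other recovered members. For each Nfkbia read there were 0.960 and 0.622 Nfkb1 reads in the larger and smaller Klrg1Cre library and 0.508 and 0.442 in the control libraries. The groups did not overlap, and the ratio of the geometric means was 1.63. For each Rel read there were 21.05 and 15.8 Nfkb1 reads in Klrg1Cre and 7.09 and 8.43 in control, a 2.36-fold difference of geometric means. The balance of Nfkbia to Rel was 21.9 and 25.3 in Klrg1Cre and 14.0 and 19.1 in control, 1.44-fold higher. All 3 ratios separated the genotypes, but with 2 libraries against 2 the exact permutation test (two-sided) cannot go below p = 0.33, the value it gave for each. The 3 ratios are built from the same 3 genes, so they are not independent. By level, 37.6% of recovered genes separated the genotypes, and no such share was computed for ratios. These are ratios of reads, not of molecules, because they are not divided by transcript length.

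**Figure D3:**
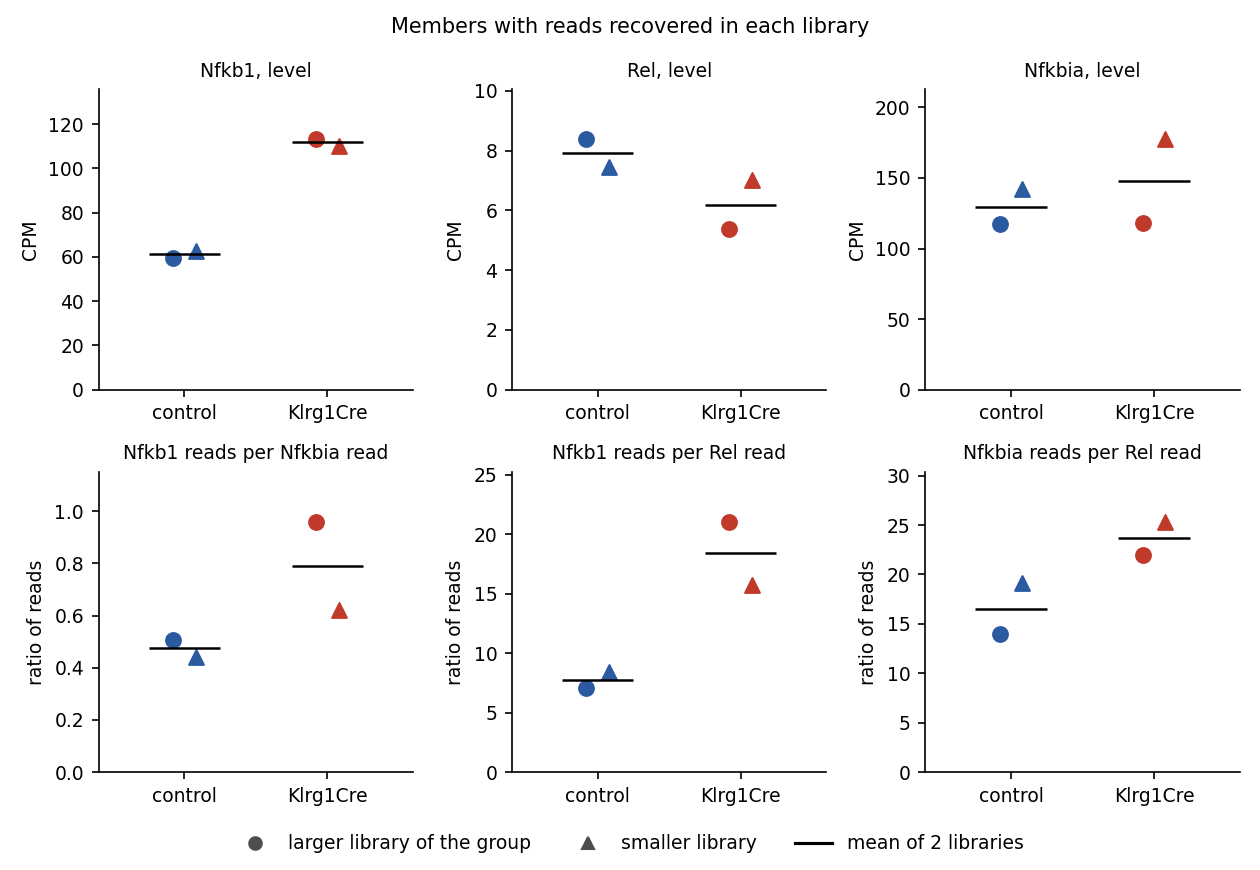
Level in CPM (upper row) and ratio of reads (lower row) for Nfkb1, Rel and Nfkbia in each of 4 libraries, with both axes starting at 0. Circles are the larger and triangles the smaller library of a genotype, and bars are means of 2 libraries; Nfkb1 lies at 59.5 and 62.8 CPM in control and at 113.3 and 110.3 CPM in Klrg1Cre, whereas Nfkbia overlaps.

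Around the members, 10 lists of pathway genes were examined, from receptors to target genes. They hold 116 genes, of which 112 were listed, and 0 of these passed the authors' adjusted p of 0.05, against 0.0589% of all genes. At their unadjusted p below 0.05, 9 had higher and 13 lower means, 19.6% of the 112 (8.04% higher and 11.6% lower), against 7.09% of all genes (3.72% higher and 3.37% lower). The median log2 ratio of the 112 was -0.04, beside 0.01 over all genes. None of the genes named from these lists therefore rose or fell by the authors' test, and the values below are descriptions.

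The kinases and adaptors between receptor and NF-kappaB had close deposited means as groups. Of 8 IKK and IKK-related kinase genes 0 had an unadjusted p below 0.05, with a median log2 ratio of 0.03, and Ikbkb, which encodes the catalytic IKK-beta, was listed at 32.4 against 29.9 CPM. Map3k14, which encodes NIK, the kinase that starts p100 processing, was listed at 6.93 against 4.41 CPM. As in 19.3% of recovered genes, both Klrg1Cre libraries (7.26 and 6.59 CPM) were above both control libraries (5.12 and 3.69 CPM). Its authors' adjusted p was 0.637, and the 4 genes of the complex that degrades NIK (Traf2, Traf3, Birc2 and Birc3) had log2 ratios between -0.25 and -0.11. In the antigen receptor module, Prkcq, which encodes the T cell kinase PKC-theta, held 28.5 and 36.3 CPM for Klrg1Cre against 24.5 and 20.1 CPM for control, and Prkcb was listed lower, at 7.63 against 10.8 CPM. The adaptor gene Myd88, used by the interleukin-33 receptor, was listed at 33.0 and 32.2 CPM, and Irak3, an inhibitor of that route, at 5.23 against 2.59 CPM (deposited adjusted p = 0.465). Traf1 was listed at 54.9 against 41.8 CPM, and Cflar, which restrains caspase-8, at 29.8 against 40.4 CPM.

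Of 14 deubiquitinase genes and other negative regulators, 0 were higher and 2 (14.3%) were lower by the authors' unadjusted p of 0.05, where all genes gave 3.72% and 3.37%. N4bp1, which encodes an RNA-cleaving restraint on NF-kappaB output, held 16.4 and 16.6 CPM in the larger and smaller Klrg1Cre library and 29.4 and 35.04 CPM in the control libraries. Its groups lay well apart at a 1.95-fold lower mean, and 18.3% of recovered genes had the Klrg1Cre pair wholly below the control pair. The adjusted p of N4bp1 in the authors' deposited table, 0.0980, missed the threshold. Peli1, which encodes an E3 ubiquitin ligase, held 21.7 and 22.5 CPM for Klrg1Cre against 28.6 and 29.3 CPM for control. Tnfaip3, which encodes the feedback inhibitor A20, was listed at 40.5 against 33.3 CPM. Of 8 listed genes for IkB degradation 0 had an unadjusted p below 0.05, with a median log2 ratio of 0.05 and Rnf123, which encodes a ligase for p105 processing, at 27.4 against 24.8 CPM.

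Receptors that signal to NF-kappaB had the lowest median of the 10 lists, -0.39, with 5 of 15 lower (33.3%) and 1 higher (6.67%) at the authors' unadjusted p below 0.05, against 3.37% and 3.72% of all genes. Tnfrsf9, which encodes the costimulatory receptor 4-1BB, was listed at 11.4 against 29.3 CPM, and Tnfrsf18, which encodes GITR, at 106.7 against 155.3 CPM. Tnfrsf4, which encodes OX40, had 49.2 and 92.01 CPM in the larger and smaller Klrg1Cre library and 88.6 and 153.5 CPM in control, so its groups overlapped. Tnfrsf1b and Cd27 were listed at 52.9 against 69.1 CPM and 23.5 against 33.8 CPM, and Il18r1 was the higher gene, at 12.1 against 7.94 CPM. Tnfrsf9 and Tnfrsf18 are also markers of regulatory T cells. Of 14 markers of those cells, all listed, 14 had lower deposited means and 11 of them (78.6% of the list) an unadjusted p below 0.05, against 3.37% of all genes; their means summed to 656.7 against 1022 CPM. In the 5 of these markers with recovered reads the sum was 71.9 and 103.8 CPM for Klrg1Cre against 112.3 and 155.6 CPM for control. Foxp3, their defining transcription factor gene, was listed at 50.6 and 104.6 CPM. The part of these markers in the receptor values, and in those of Nfkb1 and Rel, was not tested.

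Textbook NF-kappaB targets outside the set did not move together. Of 34 genes 32 were listed, and at the authors' unadjusted p below 0.05 there were 4 with higher means and 4 with lower (12.5% each, against 3.72% and 3.37% of all genes), with a median log2 ratio of 0.09. The lower genes were Icam1, an adhesion molecule gene (36.01 and 45.7 CPM in Klrg1Cre, 54.2 and 59.6 CPM in control), Ltb, Il2ra and Bcl2a1b. Bcl2a1b has near-identical copies between which reads can be split, so its value is uncertain. The higher genes were the chemokine genes Ccl4 and Ccl5, the stress-response gene Gadd45b (19.2 and 20.5 CPM against 11.1 and 16.5 CPM) and Il1b, which encodes a myeloid cytokine. Il1b held 3.27 and 1.79 CPM for Klrg1Cre against 0.419 and 0.469 CPM for control, with an authors' adjusted p of 0.268. Of 20 macrophage and monocyte markers, all listed, 14 had higher deposited means. At the authors' unadjusted p below 0.05, 1 was higher and 1 lower (5.0% each, against 3.72% and 3.37% of all genes). The 20 markers summed to 2204 CPM in Klrg1Cre and 2860 CPM in control. That order rested on Chil3, a chitinase-like gene of alveolar macrophages (1124 against 1932 CPM). Without Chil3 the other 19 summed to 1080 against 928.1 CPM, higher in Klrg1Cre. In the 8 of them with recovered reads the sum was 570.8 and 334.8 CPM for Klrg1Cre against 360.2 and 398.04 CPM for control. The macrophage gene Marco lay near the floor, at 0.538 and 0.069 CPM for Klrg1Cre and 0 reads in both control libraries. Its unadjusted p in the authors' test was 0.226. Of 12 dendritic cell markers 8 were listed, 7 of them higher, and their summed mean was 122.5 against 104.1 CPM. At the authors' unadjusted p below 0.05, 2 were higher (25.0%, against 3.72% of all genes) and 0 lower. The 5 with recovered reads summed to 68.4 and 75.3 CPM for Klrg1Cre against 52.1 and 57.1 CPM for control. Most of these reads were from H2-Ab1 (48.2 and 53.1 CPM against 37.7 and 40.1 CPM) and H2-Aa. Of the 5, 4 were wholly higher in Klrg1Cre, and Xcr1 overlapped (3.46 and 2.13 CPM against 2.49 and 2.75 CPM). The part of these markers in the values of Il1b and Nfkb1 was not tested.

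**Figure D4:**
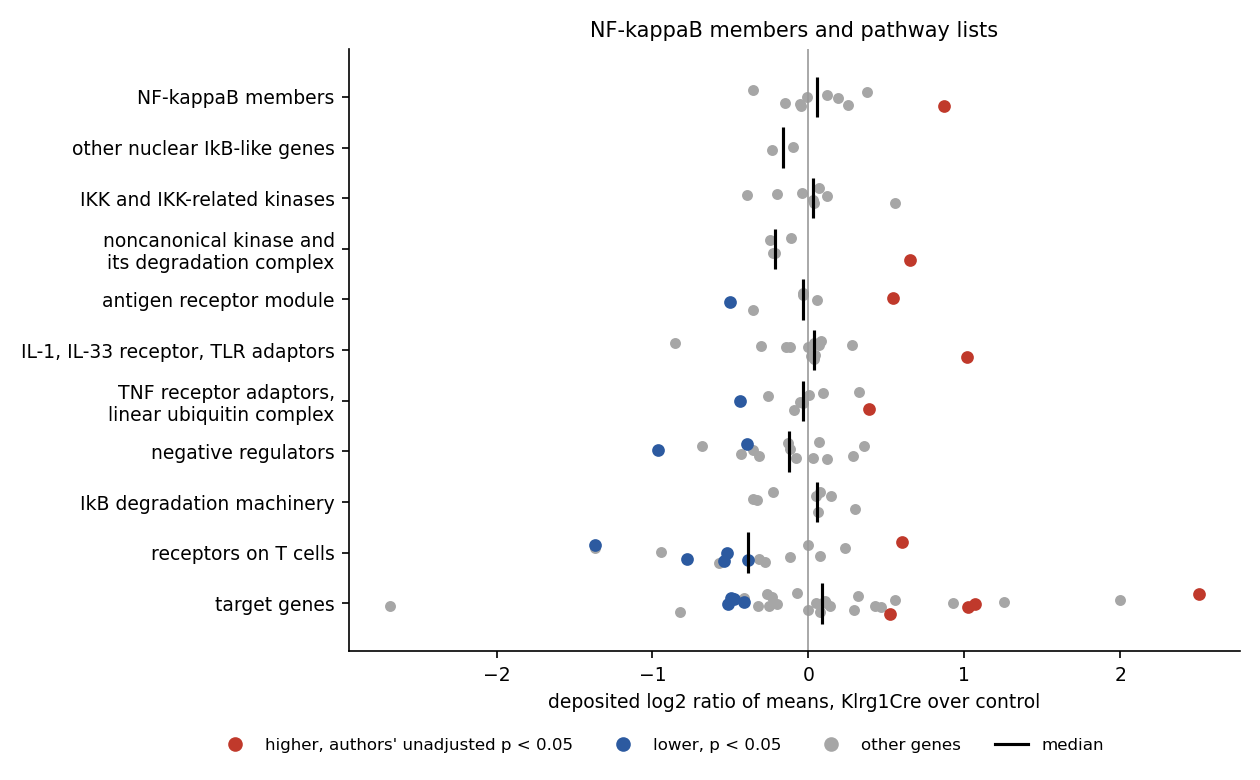
Deposited log2 ratio of means, Klrg1Cre over control, for the 10 members and each gene of the 10 pathway lists (1 point per gene, scattered vertically for legibility). Red and blue points have an unadjusted authors' p below 0.05, black bars are medians; the receptor list has the lowest median (-0.39), and Nfkb1 is the rightmost member at 0.87.

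Other cell types and handling were also set beside Nfkb1. ILC2 could be present in a gate on T1/ST2, and of 14 ILC2 markers, all listed, 6 had higher and 8 lower deposited means, with 4 higher and 4 lower at the authors' unadjusted p below 0.05 (3.72% and 3.37% of all genes). Their means summed to 608.0 against 676.4 CPM, or 314.1 against 455.1 CPM without Gata3, which holds the largest share of these reads. Without Klrg1 they summed to 603.8 against 628.0 CPM, and without both Gata3 and Klrg1 to 309.9 against 406.7 CPM. In the 6 with recovered reads the sum was 109.2 and 73.9 CPM in the larger and smaller Klrg1Cre library and 186.7 and 182.03 CPM in the control libraries, so the groups did not overlap. Klrg1, an ILC2 marker that is also found on effector and regulatory T cells and the gene for which the Cre is named, held 1.38 and 7.003 CPM for Klrg1Cre against 42.0 and 54.9 CPM for control. Its mean was 11.5-fold lower, at rank 11 of all genes by p, with a deposited adjusted p of 0.0701. Without Klrg1 the sums of the 5 other recovered markers were 107.8 and 66.9 CPM against 144.7 and 127.2 CPM. Most of these reads were from Arg1, at 70.8 and 37.0 CPM for Klrg1Cre against 106.4 and 90.6 CPM for control. Among the rest, Hlf was lower (19.6 and 14.3 CPM against 20.7 and 20.5 CPM). Il17rb overlapped between groups (14.1 and 10.1 CPM against 15.8 and 12.6 CPM), as did Areg, and Ccdc184 was higher near the floor. Besides Gata3, the higher markers at that unadjusted p were Nmur1 (7.73 against 2.40 CPM, deposited adjusted p = 0.0701), Calca (18.4 against 10.1 CPM) and Kit (1.29 against 0.356 CPM). Besides Klrg1, the lower markers were Arg1 (53.9 against 98.5 CPM), Il7r (56.1 against 91.3 CPM) and Ccr9 (1.26 against 4.10 CPM). The part of these markers in the Nfkb1 values was not tested. Marker sums of T cells (11 of 14 listed) were 1411 against 1412 CPM. The sums were 5.57 against 6.78 CPM for B and plasma cells (5 of 11 listed), 13.03 against 12.3 CPM for granulocytes and mast cells (5 of 14) and 34.6 against 28.7 CPM for epithelial and stromal cells (8 of 12). Gata3 itself, the gene that the Cre can cut, was listed at 293.9 against 221.4 CPM (deposited adjusted p = 0.551), and reads outside a cut exon can remain, so this level does not check the labels. Of 16 genes listed for RNA quality and dissociation stress, 10 had higher and 6 lower deposited means. At the authors' unadjusted p below 0.05, 2 were higher and 2 lower (12.5% each, against 3.72% and 3.37% of all genes). Fos, an early gene also induced by tissue digestion, held 68.7 and 71.6 CPM for Klrg1Cre against 37.3 and 47.3 CPM for control (deposited adjusted p = 0.209). Its groups separated in the same direction as those of Nfkb1, and so did those of the early gene Ier2 (26.02 and 40.5 CPM against 20.4 and 19.1 CPM). Of all recovered genes, 19.3% separated in this direction and 18.3% in the other. The lower genes were Egr1, another early gene (34.1 and 42.9 CPM against 50.8 and 48.1 CPM), and Hspa1a, a heat shock gene listed at 0.438 against 4.47 CPM, and Jun overlapped between groups (58.6 and 49.6 CPM against 56.5 and 62.0 CPM). The stress genes thus did not move one way, and their part in the Nfkb1 values was not tested. Scaled in each library to the reads of the recovered genes, which leaves Rn45s out, the log2 ratio of Nfkb1 was 0.84 against 0.87 as deposited.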

How the data were processed

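RNA-seq of 4 samples, 2 per genotype, was analysed from 1 deposited table. Per the submitters' processing notes, STAR, Partek and build mm9 were used, with no versions stated. Per the file headers, the table holds the authors' group means, p-values, adjusted p-values, ratio and signed fold change for 11883 genes. The deposited means are in CPM (reads per 1000000 of a library) with an offset of 0.0001. A deposited signal column, named total counts, was not used because it is 2 times the summed means. The authors' adjusted p equalled a Benjamini-Hochberg adjustment over all genes, and their test is not given in the sources used here.

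Whole reads of each library were recovered where a mean could be written in 1 way as reads of both libraries, which held for 45.0% of genes. On simulated means of 11883 genes this recovered 100% of whole reads with 0 wrong splits. Which library is replicate 1 is unknown, so libraries are called larger and smaller. Limma 3.58.1 in R 4.3.3, with a trended variance on log2(CPM + 1), was fitted to 4242 recovered genes averaging 1 CPM or more, after a test on simulated data. Across these genes, which are not independent replicates, Spearman's rho between limma's and the authors' p was 0.998. For members without recovered reads and with p below 0.8, an SE was derived as the log2(CPM + 1) difference divided by the t value of the authors' p at limma's 9.71 degrees of freedom. In 3520 recovered genes this was 0.779 to 1.21 times limma's SE (5th to 95th percentile).

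Levels of different genes were not compared, because no lengths were given with the table. All members were named; from each pathway list, genes with an unadjusted p below 0.05 and the most abundant gene were eligible. Other genes (such as Traf3, Birc2, Birc3, Cd3e, Foxp3, Marco, Klrg1, Nmur1, Calca, Kit, Arg1, Il7r, Ccr9, Chil3, Fos, Ier2, Egr1 and Hspa1a) were named after their values were seen. Members and lists were chosen with earlier results of these data known.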

Additional observations from a re-analysis of the deposited data

How the results depend on the processing

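Of 55 alternative values for the members' log2 ratios (2 scalings, pseudocounts of 1 and 5 CPM, leaving out each library, and a scaling to recovered reads chosen after seeing the data), 47 belonged to the 8 members with a standard error, and 45 of these moved by less than 1 standard error and kept their direction. The exceptions were Nfkbia without the larger Klrg1Cre library (0.45) and without the smaller (-0.14). Leaving out libraries and scaling to recovered reads were possible only for Nfkb1, Rel and Nfkbia. The other members had only the 2 scalings, which shift every gene alike, and the pseudocounts. Those could move a ratio only a little, so they do not show how these members vary between libraries. Relb and Nfkbib have no standard error. Their 8 values kept their direction and moved by at most 0.026, the constant shift of the scaling without Rn45s. The number of members called was 0 as deposited and 0 with a filter of 1 CPM. It was 1 (Nfkb1) with a filter of 5 CPM, which adjusts over fewer genes, 1 with limma on recovered genes and 1 with limma scaled to the reads of those genes (adjusted p = 0.0445). Leaving out each library in limma gave 0 to 1. In the promoters, the share of member genes with a kappaB motif was 14.3% for a stricter form with a fixed middle and 85.7% for a looser form with a free middle, against 0.159% and 48.7% of all genes. Among the genes with a window in the deposited table the shares were 0.223% and 66.1%. The stricter form was found in 1 of 7 member genes, Nfkb2. A count model on recovered reads was not run, because under 95% of genes were recovered. No paired analysis was possible because the table's columns carry no replicate numbers. The low reads of Rel (102 to 280 per library) limit its precision.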
